A study of Homo sapiens with 9 samples.

Results

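Serial passage of an anaplastic thyroid cancer (ATC) line through C57BL/6 mice gave adapted cells, and the tumors these cells formed were compared here, as 1 set, with the tumors formed by the original cells. The set held 9 tumors, which are all 9 samples of the series. The 6 adapted tumors comprised 3 from adapted cells in B6129SF1 mice (adapted/B6129SF1) and 3 from the same cells in C57BL/6 hosts (adapted/B6). The 3 reference tumors came from original cells in B6129SF1 mice. Both cell types go back to TBP3743, a murine ATC line from B6129SF1 mice in which an activated Braf allele and the deletion of Trp53 were confined to the thyroid, so these alterations were shared by all 3 groups. The adapted cells came from passage round 3 of subcutaneous growth, in which the largest tumors of a round seeded the next, and they stand for a single line of descent. Every host was a female mouse of 6 weeks that received 100000 cells in the left thyroid gland, with no further treatment, and the tumors were taken 14 days later. RNA was made from whole tumors, so tumor cells and host cells were measured together, and a lower number of cells of a type cannot be told apart from less RNA per cell. In adapted/B6 both the cells and the host strain differ from the original tumors, so these contributions cannot be told apart there, whereas adapted/B6129SF1 shares its host strain with them.

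ATC cells have lost most features of the thyroid follicular cell and often show mixed epithelial and mesenchymal traits. Interferons, which T cells, NK cells and infected or stressed cells release, switch on genes for antigen processing and for intracellular defence through STAT factors. Homeobox factors set positional identity in the embryo, and their altered expression is common in cancer.

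Expression was given as FPKM (fragment counts scaled to transcript length and library size), and values were compared as log2(FPKM + 1), on which the changes of weakly expressed genes are understated. Folds are ratios of mean FPKM, and ranges over the tumors of a side are written with a dash. A gene was called when limma gave an adjusted p under 0.05 for the mean over both adapted groups minus the original group. The 10263 genes that reached 1 FPKM in 3 tumors or more were tested. Depth, roughly estimated relative to original replicate 1, lay between 0.959 and 1.35 in the other tumors. Transcripts of skeletal muscle made up 8.04% of the FPKM sum of adapted/B6129SF1 replicate 3 and 1.6% of that of adapted/B6 replicate 1, but at most 0.206% elsewhere. These 2 tumors also had the highest values on the first principal component, which held 49.2% of the variance. The second component held 21.3%, with the 3 original tumors between 19.5 and 22.0 and the adapted tumors between -26.1 and 16.6, the 16.6 being that of adapted/B6129SF1 replicate 3. Of the 25 muscle genes tested limma called 0, and 0 had an unadjusted p under 0.05. All 25 estimates were nevertheless above 0 (median log2 fold change 2.43), with a wide spread between tumors. Mylpf, a fast muscle myosin light chain, spanned 1.36–11294 FPKM within the adapted tumors.

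The label "cancer epithelial cell" was matched by Krt8 and Krt18, the keratins of simple epithelia. Of the 28 genes of the epithelial list, 13 stayed under 1 FPKM in all tumors. Others were well expressed, with Tjp1 between 20.2 and 35.1 FPKM and Krt20 up to 80.8 FPKM. Krt8 lay between 153 and 615 FPKM and Krt18 between 110 and 390 FPKM over the 9 tumors. The adhesion genes Epcam and Cdh1 stayed at or below 2.49 and 4.48 FPKM. Of the thyroid factors, Nkx2-1 ranged from 23.5 to 44.5 FPKM and was not called (log2 fold change 0.07, SE 0.22, adjusted p = 0.859). Pax8 did not reach the filter and was not tested. It was 0.748, 1.61 and 0.592 FPKM in the original tumors against 0.136, 0.108 and 0.0174 in adapted/B6129SF1 and 0.886, 0.511 and 0.212 in adapted/B6. All adapted tumors except adapted/B6 replicate 1 were thus below every original one. The TSH receptor gene Tshr was at most 0.0703 FPKM. Thyroglobulin (Tg), the follicular hormone precursor, varied from 0.0153 to 31.0 FPKM without following the groups. Hhex, a homeobox gene of the thyroid bud, was 30.0, 34.9 and 27.8 FPKM in the original tumors against 22.9, 21.8 and 14.7 in adapted/B6129SF1 and 20.4, 24 and 23.5 in adapted/B6. Its fall of 0.53 on the log2 scale (SE 0.15, adjusted p = 0.0482) was called with the deposited scaling and in none of the other 4 scalings, and it was lost without any original tumor, adapted/B6129SF1 replicate 2 or any adapted/B6 tumor (adjusted p up to 0.139). Trp53 was between 7.14 and 15.6 FPKM in the 9 tumors. Whole-tumor values do not separate host transcripts from those of a deleted allele, so they are no check of the genotype.

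Across the transcriptome, adapted and original tumors differed at 1221 of the 10263 genes (11.9%), of which 622 were higher in the adapted tumors (6.06%) and 599 lower (5.84%). DEGs, which also had an absolute log2 fold change above 1, numbered 348 (3.39%), with 260 higher (2.53%) and 88 lower (0.857%). The 6 adapted values lay on 1 side of the 3 original values for 1966 genes (19.2%), above them for 876 (8.54%) and below them for 1090 (10.6%). Of the genes called, 1126 separated the groups in this way, 562 above and 564 below, and 95 did not. The changes up to a log2 fold change of 0.5 leaned lower and the larger ones higher. Above a log2 fold change of 2, 35 genes were higher and 19 lower, and between 1 and 2 there were 225 and 69. From 0.5 to 1 there were 304 and 214. Up to 0.5 there were 58 higher and 297 lower. The genes called higher had a median of 9.25 FPKM over the 9 tumors and those called lower 17.3 FPKM, against 14.3 FPKM for all genes tested.

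The lean of the small changes depended on how the tumors were scaled. Small consistent shifts, defined as called genes without overlap and with an absolute log2 fold change of at most 1, numbered 318 higher and 483 lower with the deposited scaling (39.7% higher). With upper-quartile scaling they were 409 and 280 (59.4% higher), with the muscle list taken out of the scaling 284 and 238 (54.4%), and with quantile normalization 236 and 455 (34.2%). Of all genes called, the higher share was 50.9% as deposited, 66.9% with upper-quartile scaling, 64.4% without the muscle list and 45.8% with quantile normalization. Under all 5 scalings, 442 genes stayed called as higher and 295 as lower, among them 181 and 210 small shifts. The counts also rested on the few original tumors. Without original replicate 3 there were 275 genes called higher and 188 lower, without original replicate 1 there were 320 and 225, without original replicate 2 there were 406 and 440, and without adapted/B6 replicate 3 there were 383 and 312. Without adapted/B6 replicate 1 the genes called lower numbered 335. Of the 179 called members of the gene lists described below, 145 were called under all 5 scalings and 70 with each tumor left out, so that counts in a list could shrink with 1 original tumor fewer. A list with a share called near 11.9% did not stand out from all genes.

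A gene could reach the filter through 1 side alone, which favours a difference. Of the genes tested, 245 were under 1 FPKM in every original tumor and 26 in every adapted tumor. Among the other 9992 genes 536 were called higher and 577 lower (11.1%). With no filter, limma called 560 of 14520 genes higher and 541 lower. Of the 222 genes counted as named, 22 called ones had reached the filter through 1 side. With no filter 21 of these were also called, and the exception was Mmp10 (limma adjusted p = 0.0769). Those from the original side were Dner, Rnf43, Foxf2, Gap43, Ror1 and Mmp10. From the adapted side came Wnt6, Inha, Batf3, S100b, Serpina3f, Nefl, Gpc6, Nefm, Cldn9, Ptgis, Crmp1, Clec9a, Chst13, Chst15, Ido1 and Sema3b. The 222 leave out some list members named beside a count and some genes near 0 on 1 side. In the aldo-keto and retinoid list, 2 such called members fell outside the 222, and 1 of them kept its call with no filter. Lists with more than 1 such called member are given below also without these members, and each of the other lists described held at most 1.

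**Figure D1:**
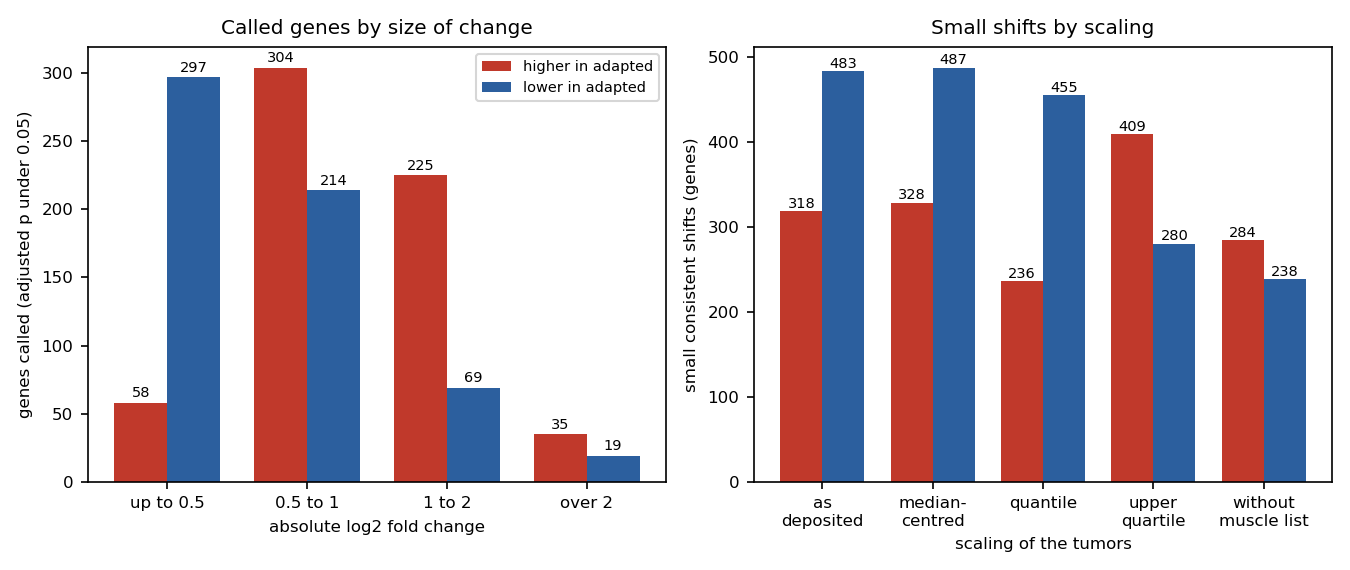
Left, number of genes called at an adjusted p under 0.05 by absolute log2 fold change of adapted against original tumors, higher (red) and lower (blue); right, number of small consistent shifts in each direction under 5 scalings of the 9 tumors. Falls outnumber rises up to 0.5 and rises outnumber falls above it, and the small shifts change their lean between the scalings (318 higher and 483 lower as deposited, 409 and 280 with upper-quartile scaling).

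The largest falls among genes without overlap were in genes of varied roles. Akr1c18, an aldo-keto reductase that inactivates progesterone, was 208, 233 and 317 FPKM in the original, 4.38, 5.68 and 0.501 in the adapted/B6129SF1 and 4.57, 4.09 and 3.08 in the adapted/B6 tumors. The adapted tumors therefore stood 67.9-fold lower (log2 fold change -5.86, SE 0.42, adjusted p = 0.000497). Mme, the membrane peptidase neprilysin, was 10.7, 118 and 12.6 FPKM in the original tumors against 1.41, 1.34 and 1.3 in adapted/B6129SF1 and 0.509, 1.44 and 1.11 in adapted/B6. One original tumor was about an order of magnitude above the others, yet the lowest original value was well above every adapted one (log2 fold change -3.63, SE 0.65, adjusted p = 0.0104). Krt20, a keratin of intestinal and urothelial epithelium, was 30.5, 57.3 and 80.8 FPKM in the original, 4.83, 7.78 and 2.55 in the adapted/B6129SF1 and 13.9, 5.63 and 2.84 in the adapted/B6 tumors, and fell by 3.06 (SE 0.47, adjusted p = 0.00565). Clu, the extracellular chaperone clusterin, was 159, 195 and 144 FPKM in the original tumors against 17.1, 12.4 and 32.2 in adapted/B6129SF1 and 20.7, 46.2 and 21.7 in adapted/B6, a 6.64-fold fall with little spread among the original tumors (log2 fold change -2.79, SE 0.32, adjusted p = 0.00206). Rgs16, a brake on G protein signalling, was 27.8, 12.9 and 55.6 FPKM in the original, 2.39, 3.01 and 3.1 in the adapted/B6129SF1 and 4.01, 2.74 and 2.97 in the adapted/B6 tumors. Its 6 adapted values were closely grouped while the original ones were spread (log2 fold change -2.82, SE 0.36, adjusted p = 0.00276).

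Pthlh, a hormone-like peptide that carcinomas can secrete, fell from 8.26–35.9 to 1.84–4.01 FPKM (log2 fold change -2.50, SE 0.40, adjusted p = 0.00652). Gas1, a membrane protein linked to growth arrest and Hedgehog signalling, fell from 42.9–121 to 7.32–14.7 FPKM (log2 fold change -2.45, SE 0.34, adjusted p = 0.00382). Sox2, a transcription factor of stem and progenitor cells, was 20.3, 23.6 and 31.5 FPKM in the original tumors against 5.15, 5.04 and 1.66 in adapted/B6129SF1 and 7.7, 4.18 and 5.97 in adapted/B6. All adapted tumors were below the original ones, by 5.07-fold in the mean (log2 fold change -2.20, SE 0.29, adjusted p = 0.00325). Mmp10, a stromelysin, was 4.05, 1.45 and 34.6 FPKM in the original tumors against 0.34, 0.25 and 0.0535 in adapted/B6129SF1 and 0.384, 0.32 and 0.584 in adapted/B6. Its fall (log2 fold change -2.54, SE 0.69, adjusted p = 0.0466) was called in 3 of 5 scalings and was lost without original replicate 1 or without any of the 6 adapted tumors (adjusted p up to 0.0937). Angptl7, a secreted angiopoietin-like protein, fell with similar uncertainty (log2 fold change -2.20, SE 0.53, adjusted p = 0.0322). It lost its call without any of the original tumors and without adapted/B6129SF1 replicates 1 and 2 or adapted/B6 replicates 2 and 3 (adjusted p up to 0.101).

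The largest rises included interferon-inducible genes, which are described with their group below, and genes with other roles. Chst15, a sulfotransferase that adds a further sulfate to chondroitin chains, had the smallest p of the genes tested and was 0.777, 0.594 and 0.737 FPKM in the original, 13.3, 7.72 and 9.44 in the adapted/B6129SF1 and 10.1, 15.2 and 12.4 in the adapted/B6 tumors (log2 fold change 2.83, SE 0.17, adjusted p = 0.000463). Clec1a, a C-type lectin receptor of endothelial and myeloid cells, was 1.96, 0.939 and 0.95 FPKM in the original tumors against 18.4, 14.7 and 11.9 in adapted/B6129SF1 and 11.4, 19.1 and 13 in adapted/B6, a rise of 11.5-fold (log2 fold change 2.79, SE 0.21, adjusted p = 0.000497). Nsg1, an endosomal protein best known from neurons, was 4.89, 5.3 and 4.66 FPKM in the original, 30.9, 28.4 and 25.4 in the adapted/B6129SF1 and 27, 60.3 and 44.8 in the adapted/B6 tumors. Its lowest adapted value was several times the highest original one (log2 fold change 2.57, SE 0.21, adjusted p = 0.000732). Myl9, the regulatory light chain of smooth muscle and non-muscle myosin, rose from 3.5–7.11 to 28.8–59.6 FPKM (log2 fold change 2.57, SE 0.23, adjusted p = 0.00109). Cldn9, a tight junction claudin, was 0.693, 0.947 and 0.915 FPKM in the original tumors against 8.58, 10.7 and 5.15 in adapted/B6129SF1 and 9.99, 9.86 and 10.9 in adapted/B6 (log2 fold change 2.43, SE 0.18, adjusted p = 0.000497). These 5 genes were called in each of the 5 scalings and with each tumor left out.

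**Figure D2:**
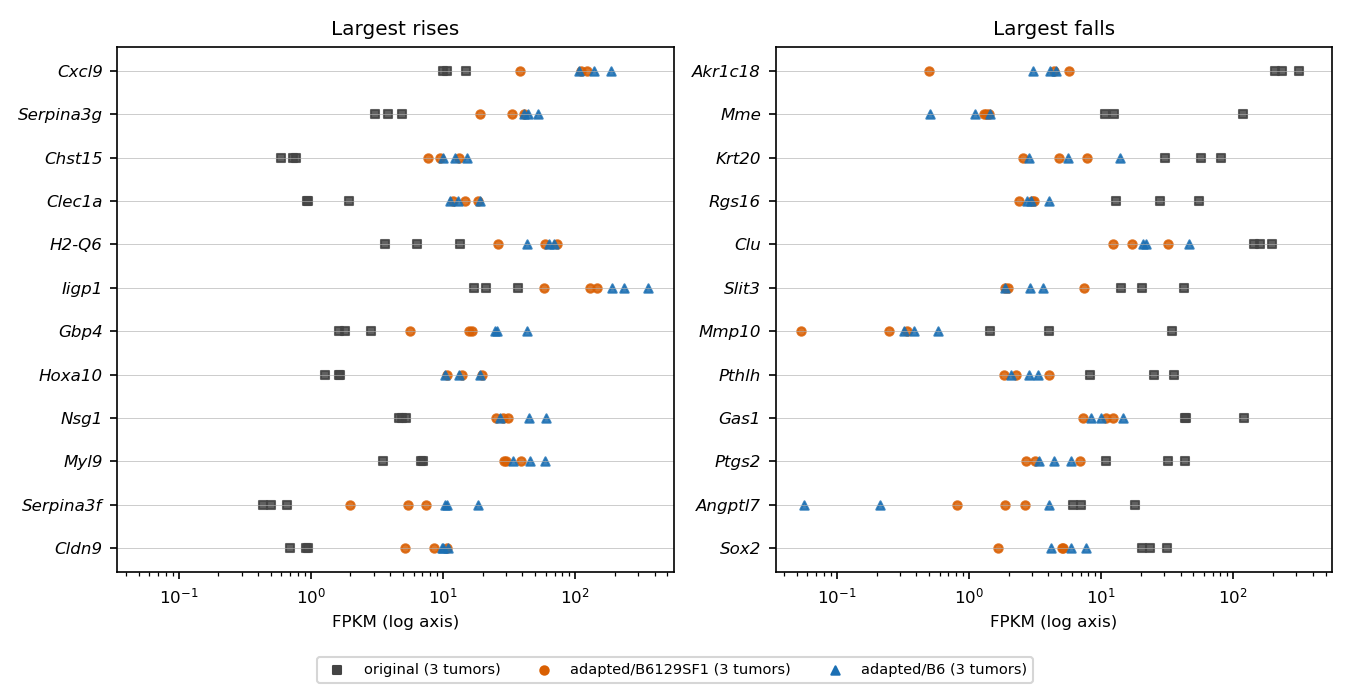
FPKM of the 12 genes with the largest rise (left) and the 12 with the largest fall (right), chosen among called genes without overlap between adapted and original tumors, in each of the 9 tumors, on a log axis shared by both panels, with original tumors as grey squares, adapted/B6129SF1 as orange circles and adapted/B6 as blue triangles. Akr1c18 shows the widest gap (208 to 317 against 0.501 to 5.68 FPKM).

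The called genes of the HoxA cluster were higher in the adapted tumors and those of the HoxB cluster lower. Of the list of 26 homeobox genes tested, 6 were called higher and 2 lower (median log2 fold change 0.15, against -0.03 over all genes). In the HoxA cluster 9 genes were tested, 5 were called higher, and all 9 estimates were above 0. In the HoxB cluster 8 were tested, 3 were called lower, and 0 estimates were above 0. Hoxa10 was 1.65, 1.63 and 1.29 FPKM in the original, 19.9, 14.1 and 10.8 in the adapted/B6129SF1 and 10.3, 19.2 and 13.2 in the adapted/B6 tumors, a 9.54-fold rise (log2 fold change 2.59, SE 0.22, adjusted p = 0.000732). Hoxa9 was 1.23, 1.18 and 1.21 FPKM in the original tumors against 10.8, 7.98 and 6.94 in adapted/B6129SF1 and 5.88, 12.5 and 8.09 in adapted/B6 (log2 fold change 2.10, SE 0.21, adjusted p = 0.00117). Both were near 1 FPKM in all original tumors, and the 6 adapted values of each lay far above. Hoxa10 and Hoxa9 are the most 5′ of the HoxA genes tested and are known for posterior and limb patterning. The other 3 genes called, Hoxa3, Hoxa5 and Hoxa4, rose by 0.87, 0.77 and 0.55 (adjusted p = 0.0143, 0.0397 and 0.0235). All 3 lost their call without original replicates 1 or 3, Hoxa5 also without original replicate 2, adapted/B6129SF1 replicates 1 or 2 or adapted/B6 replicate 3, and Hoxa4 also without adapted/B6 replicates 1 or 3 (adjusted p up to 0.0642, 0.127 and 0.0953). Meis3, a cofactor of Hox proteins, rose from 0.872–1.37 to 3.29–5.29 FPKM (log2 fold change 1.27, SE 0.16, adjusted p = 0.00286).

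In HoxB, Hoxb7 was 31.6, 40.8 and 35.2 FPKM in the original tumors against 20.1, 18.4 and 16.8 in adapted/B6129SF1 and 21.8, 25.9 and 29.2 in adapted/B6. The adapted/B6129SF1 tumors were lower than the adapted/B6 tumors, and all 6 were below the original ones (log2 fold change -0.69, SE 0.12, adjusted p = 0.00847). Hoxb9, named after its values were seen because the list did not hold it, fell from 9.22–15.1 to 3.94–8.6 FPKM (log2 fold change -0.95, SE 0.17, adjusted p = 0.01). Hoxb6 fell by 0.78 (adjusted p = 0.0481) but was called in 1 of 5 scalings, and the call was lost without any original tumor and without adapted/B6129SF1 replicate 2 or any adapted/B6 tumor (adjusted p up to 0.157). Msx1, the homeobox gene of the list with the highest level, was not called (log2 fold change -0.11, SE 0.19, adjusted p = 0.74).

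**Figure D3:**
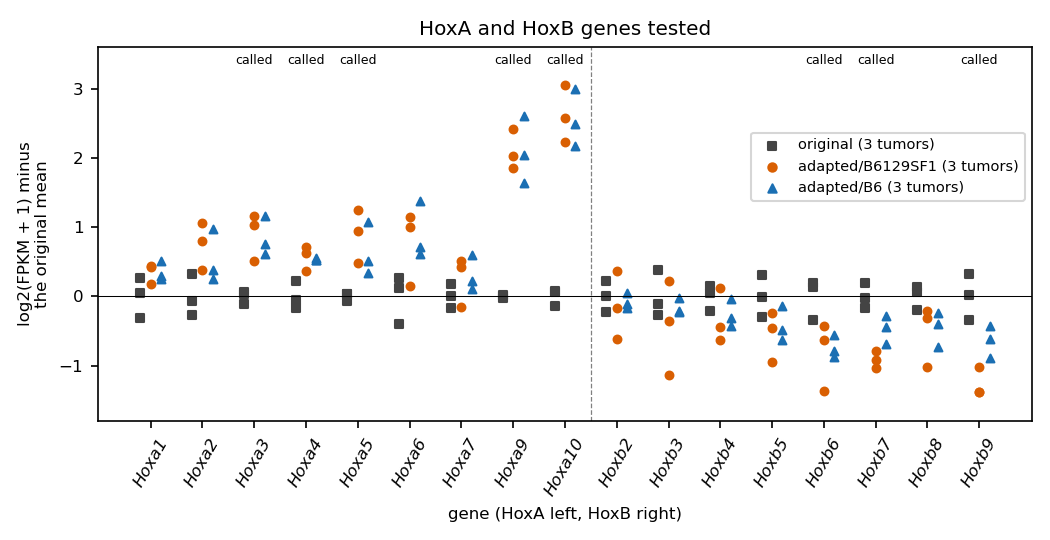
log2(FPKM + 1) of each tumor minus the mean of the 3 original tumors for the 9 HoxA and 8 HoxB genes tested, with original tumors as grey squares, adapted/B6129SF1 as orange circles and adapted/B6 as blue triangles; "called" marks genes with an adjusted p under 0.05. Hoxa9 and Hoxa10 stand farthest above the line (mean differences 2.10 and 2.59), and the HoxB genes lie mostly below it.

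Of 24 type I interferon-stimulated genes tested, 15 were called higher and 0 lower (median log2 fold change 0.84), and of 18 genes of interferon-gamma signalling 8 were higher and 0 lower (median 0.70). Without original replicate 3 these counts were 9 and 5, and without original replicate 1 the interferon-gamma count was also 5. Of the 8 interferon-gamma genes called, 1 reached the filter through the adapted tumors alone and was not called with no filter. Among the other 17 genes of that list 7 were higher, and with no filter 7 of 18. Stat2, a factor that carries the interferon signal to DNA, rose from 8.07–10.3 to 13.8–25 FPKM (log2 fold change 0.87, SE 0.13, adjusted p = 0.00563). The regulator Irf8 rose from 8.71–10.5 to 18.1–29.8 FPKM (log2 fold change 1.11, SE 0.14, adjusted p = 0.00276). Ifngr1, a chain of the interferon-gamma receptor and the member with the highest level, was not called (log2 fold change 0.21, SE 0.11, adjusted p = 0.252). Among the intracellular defence genes, Zbp1, a sensor of Z-form nucleic acids, was 17.7, 9.19 and 10.3 FPKM in the original, 40.8, 40.8 and 40.3 in the adapted/B6129SF1 and 45.1, 54.2 and 86.7 in the adapted/B6 tumors (log2 fold change 1.96, SE 0.23, adjusted p = 0.00225). Trim30a, a regulator of inflammatory signalling, rose from 6.35–7.85 to 16.3–21.4 FPKM (log2 fold change 1.31, SE 0.11, adjusted p = 0.000757). Oas3, a synthetase that activates RNase L, rose from 0.488–1.39 to 3.39–5.5 FPKM (log2 fold change 1.55, SE 0.20, adjusted p = 0.00276). Bst2, an antiviral membrane tether, rose less (log2 fold change 0.83, SE 0.19, adjusted p = 0.0249) and was not called without original replicates 1 or 3 (adjusted p up to 0.0988).

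Interferon-inducible GTPase genes and the chemokine gene Cxcl9 were among the largest rises of all. Iigp1, a GTPase that attacks pathogen vacuoles, was 37.3, 21.1 and 17.3 FPKM in the original, 58.5, 146 and 128.9 in the adapted/B6129SF1 and 192, 236 and 360.0 in the adapted/B6 tumors (log2 fold change 2.71, SE 0.35, adjusted p = 0.00276). Gbp4, a guanylate-binding protein, was 2.88, 1.64 and 1.83 FPKM in the original tumors against 5.69, 16.8 and 15.9 in adapted/B6129SF1 and 24.8, 25.5 and 43.5 in adapted/B6 (log2 fold change 2.69, SE 0.33, adjusted p = 0.00248). In both, adapted/B6129SF1 replicate 1 was the lowest adapted tumor and the adapted/B6 tumors were the highest. Cxcl9, which attracts T cells through CXCR3, was 15, 10.7 and 10.1 FPKM in the original, 38.6, 111 and 124 in the adapted/B6129SF1 and 140.0, 108 and 188 in the adapted/B6 tumors (log2 fold change 3.09, SE 0.36, adjusted p = 0.00199). Ccl5, another T cell attractant, was 13.3, 13.6 and 11.9 FPKM in the original tumors against 32.6, 37.6 and 68.3 in adapted/B6129SF1 and 37.1, 44.5 and 48.8 in adapted/B6 (log2 fold change 1.68, SE 0.21, adjusted p = 0.00259). Of 21 chemokine genes 3 were higher, Cxcl9, Ccl5 and Cxcl16, and 1 lower (median 0.03), and the other 17 were not called. Without adapted/B6129SF1 replicate 1 there were 5 rises. Cxcl16 kept its call in 2 of the 9 fits with a tumor left out (adjusted p up to 0.162). The 1 called lower was the neutrophil attractant Cxcl1, whose fall (log2 fold change -1.08, SE 0.26, adjusted p = 0.0308) was lost without original replicates 1 or 3, adapted/B6129SF1 replicate 2 or adapted/B6 replicates 1 or 3 (adjusted p up to 0.104).

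Most genes listed as preparing peptides for MHC class I rose, whereas no tested gene of the constitutive proteasome was called. Of 14 genes of class I peptide processing and loading, 10 were called higher and 0 lower (median 1.05), and 9 to 11 with any 1 tumor left out. Of 30 constitutive proteasome genes limma called 0 (median -0.01), and 4 had an unadjusted p under 0.05. Psmb10, an immunoproteasome subunit, was 28.8, 24 and 22.8 FPKM in the original, 46.4, 58.1 and 69.6 in the adapted/B6129SF1 and 56.7, 66.5 and 90.8 in the adapted/B6 tumors (log2 fold change 1.30, SE 0.17, adjusted p = 0.00305). Tapbp, the tapasin that loads peptides, rose from 43–55.3 to 77–141 FPKM (log2 fold change 1.05, SE 0.14, adjusted p = 0.0034), and the related Tapbpl rose as well (log2 fold change 1.06, SE 0.16, adjusted p = 0.00511). B2m, the light chain of class I, was 2068, 1559.8 and 1818 FPKM in the original, 2801, 4091 and 3508 in the adapted/B6129SF1 and 3797, 4347 and 4873 in the adapted/B6 tumors, a 2.15-fold rise (log2 fold change 1.09, SE 0.17, adjusted p = 0.00564). Psma7, the constitutive subunit with the highest level, was between 254 and 312 FPKM in the 9 tumors (log2 fold change 0.14, SE 0.09, adjusted p = 0.358). Among heavy chains, H2-Q6 rose 7.14-fold (log2 fold change 2.77, SE 0.41, adjusted p = 0.00475), and H2-M3, which presents formylated peptides, rose from 7.76–8.95 to 13.8–20.6 FPKM (log2 fold change 0.99, SE 0.11, adjusted p = 0.00189). H2-Q6 shares sequence with other Q genes, as Serpina3f, Serpina3g and the Gbp genes do with their relatives, so reads may have been divided among copies.

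A pair of protease inhibitors of this kind were near the top of the rises. Serpina3g, an intracellular cathepsin inhibitor of T cells, was 4.93, 3.83 and 3.08 FPKM in the original, 19.3, 41.1 and 33.4 in the adapted/B6129SF1 and 41.3, 44.2 and 52.6 in the adapted/B6 tumors (log2 fold change 2.96, SE 0.22, adjusted p = 0.000497). Serpina3f was 0.663, 0.498 and 0.434 FPKM in the original tumors against 1.98, 7.5 and 5.47 in adapted/B6129SF1 and 10.8, 10.4 and 18.3 in adapted/B6 (log2 fold change 2.51, SE 0.31, adjusted p = 0.00266). The list of serpins and cathepsins held 27 genes tested, of which 8 were higher and 0 lower (median 0.46), but 2, 5 and 4 without original replicates 1, 2 and 3 and 3 without adapted/B6 replicate 3. Serpinf1, the anti-angiogenic factor PEDF, was among them (log2 fold change 1.22, SE 0.24, adjusted p = 0.0143), but not without original replicates 1 or 3 (adjusted p up to 0.0683). Cd274, which encodes PD-L1, was 6.29, 4.75 and 3.7 FPKM in the original, 7.42, 8.81 and 8.67 in the adapted/B6129SF1 and 14.5, 15.1 and 22.4 in the adapted/B6 tumors (log2 fold change 1.15, SE 0.17, adjusted p = 0.00541). Some genes that the study names were not called. The checkpoint receptor gene Ctla4 was 1.11, 0.593 and 1.19 FPKM in the original tumors against 0.823, 1.64 and 3.69 in adapted/B6129SF1 and 2.53, 2.95 and 2.74 in adapted/B6 (log2 fold change 0.74, SE 0.27, adjusted p = 0.107), the interleukin-2 receptor chain gene Il2rb was 3, 1.02 and 2.79 FPKM in the original, 2.49, 7.29 and 7.12 in the adapted/B6129SF1 and 9.2, 5.34 and 7.74 in the adapted/B6 tumors (log2 fold change 1.19, SE 0.34, adjusted p = 0.0529), and the kinase gene Akt1 was 145, 156 and 163 FPKM in the original tumors against 133, 132 and 114 in adapted/B6129SF1 and 136, 124 and 145 in adapted/B6 (log2 fold change -0.24, SE 0.09, adjusted p = 0.11).

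Of 24 T and NK cell genes tested, 10 were called higher and 0 lower (median 1.03). Of the 24, 11 were under 1 FPKM in every original tumor and so were tested through the adapted tumors alone. Of the other 13 genes 7 were higher, and with no filter 8 of 30. The count rested on single tumors. It was 21 without adapted/B6129SF1 replicate 1, but 4, 4 and 3 without original replicates 1, 2 and 3, 5 without adapted/B6129SF1 replicate 2 or adapted/B6 replicates 1 or 3, and 4 without the 2 muscle-rich tumors. The summed level of the 30 genes of the list in the table was 44.1, 22.1 and 49.9 FPKM in the original tumors, 44.1, 113 and 115 FPKM in adapted/B6129SF1 and 150.3, 109 and 143 FPKM in adapted/B6. Adapted/B6129SF1 replicate 1 was thus at the level of the original tumors. The most abundant gene was Gzmb, a granzyme of cytotoxic cells, and without it the sums were 18.9 to 38.6 FPKM in the original and 35.2 to 106 FPKM in the adapted tumors. Gzmb was 7.01, 3.22 and 11.2 FPKM in the original tumors against 8.89, 9.71 and 13.2 in adapted/B6129SF1 and 44.2, 28.7 and 46.8 in adapted/B6. The adapted/B6129SF1 tumors overlapped the original ones and the adapted/B6 tumors did not, and the call (log2 fold change 1.52, SE 0.31, adjusted p = 0.0172) was lost without original replicate 1 (adjusted p = 0.0594). Lag3, a checkpoint receptor, was 1.02, 1.3 and 1.15 FPKM in the original, 2.85, 4.63 and 3.63 in the adapted/B6129SF1 and 4.72, 3.74 and 4.12 in the adapted/B6 tumors (log2 fold change 1.19, SE 0.14, adjusted p = 0.00206). Cd3g, a chain of the T cell receptor complex, was 1.17, 0.967 and 1.04 FPKM in the original, 2.03, 8.37 and 5.93 in the adapted/B6129SF1 and 8.61, 5.53 and 7.02 in the adapted/B6 tumors (log2 fold change 1.73, SE 0.31, adjusted p = 0.0108). Without original replicate 3 Cd3g was not called (adjusted p = 0.0504). The part of T and NK cell number in the interferon and antigen processing results was not tested.

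Of 24 macrophage and monocyte genes 4 were higher, Fcgr4, Fcgr1, Ly6c2 and Aif1, and 0 lower (16.7% called, against 11.9% of all genes, median 0.45). The rises numbered 1, 2 and 2 without original replicates 1, 2 and 3 and 2 without adapted/B6 replicate 3. The summed level of the list was 2856, 3481 and 3714 FPKM in the original tumors and 2947 to 5548 FPKM in the adapted ones, with Lyz2 the most abundant. Lyz2, the macrophage lysozyme, was not called (log2 fold change 0.24, SE 0.22, adjusted p = 0.5). Fcgr4, an activating Fc receptor, was 11.4, 7.21 and 14.5 FPKM in the original, 37.1, 45.7 and 64 in the adapted/B6129SF1 and 102, 34.7 and 83.9 in the adapted/B6 tumors, a 5.56-fold rise (log2 fold change 2.31, SE 0.35, adjusted p = 0.00541). Fcgr1 rose less (log2 fold change 0.87, SE 0.18, adjusted p = 0.018), and not without original replicates 1 or 2 (adjusted p up to 0.0648). Clec9a, a receptor for dead cells on conventional dendritic cells, was 0.416, 0.154 and 0.236 FPKM in the original tumors against 6.15, 3.46 and 2.75 in adapted/B6129SF1 and 2.99, 4.71 and 3.52 in adapted/B6 (log2 fold change 1.93, SE 0.21, adjusted p = 0.00174). Of 7 dendritic cell genes 2 were higher, Clec9a and Batf3, and 1 lower, Fscn1 (median 0.54). Of these genes 3, Clec9a and Batf3 among them, reached the filter through the adapted tumors alone, and of the other 4, 0 were higher and 1 lower. With no filter 3 of 12 were higher and 1 lower. Batf3 lost its call with each tumor left out except adapted/B6129SF1 replicate 1, and Fscn1 without original replicates 2 or 3 or adapted/B6 replicate 3 (adjusted p up to 0.108 and 0.0722), and both without the 2 muscle-rich tumors. Defining markers such as Xcr1 and Flt3 were below 1 FPKM in all tumors. Of 7 neutrophil genes limma called 0 (median -0.22) and 1 had an unadjusted p under 0.05, and B and plasma cell genes had 0 members tested, with at most 2.2 FPKM in sum. The complement factor gene Cfb rose from 3.4–5.76 to 11.3–48.7 FPKM (log2 fold change 2.04, SE 0.34, adjusted p = 0.00785), and of 15 complement genes 2 were called, Cfb and C3 (13.3%). There were 5 without adapted/B6129SF1 replicates 1 or 3 and 4 without adapted/B6 replicate 2. C3 was not called without any of the original tumors or without adapted/B6 replicates 1 or 3 (adjusted p up to 0.111).

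Of 31 genes of NF-kB and TNF signalling 5 were higher, Tnfsf13b, Tnfaip3, Cd40, Tnfsf10 and Tnfrsf9, and 1, Rela, lower (median 0.21). The rises numbered 2, 1 and 0 without original replicates 1, 2 and 3, and 2 without adapted/B6129SF1 replicate 2 or adapted/B6 replicates 1 or 3. Over the 5 scalings there were 2 to 5 rises and 0 to 1 falls. Without the 2 muscle-rich tumors there were 3 rises and 0 falls. Rela kept its call in 1 of the 9 fits with a tumor left out (adjusted p up to 0.131). Tnfsf13b, the B cell survival factor BAFF, rose from 0.592–1.03 to 1.69–4.96 FPKM (log2 fold change 1.27, SE 0.25, adjusted p = 0.0153). Tnfaip3, an inhibitor of NF-kB, rose from 3.97–5.29 to 6.06–7.83 FPKM (log2 fold change 0.54, SE 0.11, adjusted p = 0.0177). Both calls were lost without original replicates 2 or 3 (adjusted p up to 0.0571 and 0.079). Il1rl1, the receptor of interleukin-33, was 113, 28.6 and 136 FPKM in the original tumors against 5.16, 4.12 and 6.75 in adapted/B6129SF1 and 14, 17.4 and 31.4 in adapted/B6. It fell strongly (log2 fold change -2.77, SE 0.47, adjusted p = 0.00849) although adapted/B6 replicate 3 overlapped the lowest original tumor. Of 30 chemokine and cytokine receptors 3 were higher and 1, Il1rl1, lower (13.3% called, against 11.9% of all genes, median 0.33). The 3 were Tnfrsf1b, Il15ra and Csf2ra, the last a chain of the GM-CSF receptor (log2 fold change 0.86, SE 0.19, adjusted p = 0.022). The call of Csf2ra was lost without original replicates 1 or 2 (adjusted p up to 0.0873). The rises of this list numbered 0, 0 and 1 without original replicates 1, 2 and 3, 1 without adapted/B6 replicates 1 or 3, and 7 without adapted/B6129SF1 replicate 1 or adapted/B6 replicate 2.

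Of 12 epithelial genes tested, 4 were called lower, Krt20, Krt8, Cldn1 and the desmosome gene Pkp2, and 0 higher (median -0.23). Without original replicate 1 the falls numbered 2, with Krt8 and Pkp2 lost (adjusted p up to 0.0531 for Pkp2). Of 16 mesenchymal transition genes 2 were lower and 0 higher (12.5% called, against 11.9% of all genes, median -0.12). Krt8 was 553, 363 and 615 FPKM in the original, 180.2, 283 and 153 in the adapted/B6129SF1 and 222, 221 and 241 in the adapted/B6 tumors (log2 fold change -1.22, SE 0.22, adjusted p = 0.0104), and its partner Krt18 was not called (log2 fold change -0.94, SE 0.29, adjusted p = 0.0685). Cldn1, a tight junction claudin, was 7.45, 6.37 and 5.28 FPKM in the original tumors against 0.688, 1.3 and 2.44 in adapted/B6129SF1 and 1.16, 2.66 and 1.98 in adapted/B6, a 3.73-fold fall (log2 fold change -1.49, SE 0.25, adjusted p = 0.00769). Vim, the intermediate filament of mesenchymal cells and one of the most abundant transcripts, was 4625, 6058 and 5489 FPKM in the original, 2664, 3350.4 and 2611 in the adapted/B6129SF1 and 3048, 3704 and 3455 in the adapted/B6 tumors (log2 fold change -0.78, SE 0.15, adjusted p = 0.0144). Twist2, a mesenchymal transcription factor, was 35.3, 39.8 and 39.2 FPKM in the original tumors against 20.6, 14.6 and 11.4 in adapted/B6129SF1 and 16, 23.8 and 24.1 in adapted/B6 (log2 fold change -1.05, SE 0.19, adjusted p = 0.01). Krt8, Cldn1, Vim and Twist2 were each lower in every adapted tumor than in any original tumor. The call of Krt8 was lost without original replicates 1 or 3 and that of Vim without replicate 3 (adjusted p up to 0.0532 and 0.0651).

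Of 42 genes of the actin cytoskeleton and its regulation, 3 were higher, Myl9, Rhoj and Cnn1, and 0 lower (7.14% called, against 11.9% of all genes, median 0.04). Cnn1, calponin of smooth muscle, was not called without original replicates 2 or 3 and the endothelial GTPase gene Rhoj not without any original tumor (adjusted p up to 0.0689 and 0.0857), and Actb, cytoplasmic actin, was not called (log2 fold change 0.03, SE 0.11, adjusted p = 0.89). Acta2, smooth muscle actin, was 15.8, 8.33 and 8.99 FPKM in the original, 27.9, 30.9 and 76.5 in the adapted/B6129SF1 and 34.2, 41.7 and 47.4 in the adapted/B6 tumors (log2 fold change 1.84, SE 0.32, adjusted p = 0.00985). Fap, the fibroblast activation protein, rose from 0.617–1.16 to 1.88–4.55 FPKM (log2 fold change 1.05, SE 0.19, adjusted p = 0.0109). Without original replicate 3 neither was called (adjusted p = 0.0512 and 0.0552). Thy1, a surface glycoprotein of fibroblasts and T cells, was 43, 57.2 and 71 FPKM in the original tumors against 118, 82.8 and 77.9 in adapted/B6129SF1 and 145, 185 and 166 in adapted/B6 (log2 fold change 1.12, SE 0.18, adjusted p = 0.00722). Cspg4, the NG2 proteoglycan of pericytes, fell (log2 fold change -1.07, SE 0.20, adjusted p = 0.0134), a call lost without original replicate 3 (adjusted p = 0.0616). Of 17 fibroblast and pericyte genes 3 were thus higher and 1 lower (median 0.40). Their sum was 1106, 1323 and 1103 FPKM in the original tumors and 1188 to 1641 FPKM in 5 adapted tumors, with 3873 FPKM in adapted/B6129SF1 replicate 3. Of that last sum Des alone made up 1826 FPKM. Des was 284 FPKM in the other muscle-rich tumor, adapted/B6 replicate 1, and at most 41.0 FPKM elsewhere, so this sum also followed the muscle transcripts. Col3a1, the most abundant gene of the list, was not called (log2 fold change -0.18, SE 0.20, adjusted p = 0.587). The part of stromal cell number in these values was not tested.

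Of 21 endothelial genes 3 were higher, Esm1, Egfl7 and Plvap, and 0 lower (14.3% called, against 11.9% of all genes, median 0.32). Without original replicates 1 or 2 there was 1 rise. Egfl7 kept its call in 7 and Plvap in 2 of the 9 fits with a tumor left out (adjusted p up to 0.0823 and 0.157). Esm1, a marker of endothelial tip cells, rose from 5.2–8.78 to 13.7–50.6 FPKM (log2 fold change 1.75, SE 0.31, adjusted p = 0.0104). The pan-endothelial gene Pecam1 was not called (log2 fold change 0.31, SE 0.18, adjusted p = 0.289), and the summed endothelial level was 160.5 to 200.2 FPKM in the original and 178 to 293 FPKM in the adapted tumors. Of 6 nerve and Schwann cell genes 4 were higher and 0 lower, but 3 of the 4, S100b, Nefm and Nefl, were tested through the adapted tumors alone. Of the other 3 genes 1 was higher, and with no filter 3 of 10. The 4 were S100b (log2 fold change 1.24, SE 0.21, adjusted p = 0.00926), the neurofilament genes Nefm (log2 fold change 1.16, SE 0.21, adjusted p = 0.0104) and Nefl (log2 fold change 1.43, SE 0.26, adjusted p = 0.0114), and the neuronal tubulin Tubb3 (log2 fold change 1.21, SE 0.29, adjusted p = 0.0318). The defining Schwann cell gene Sox10 was at or near 0, with 0 FPKM in 6 tumors and at most 0.764 FPKM. Nefl was not called without original replicate 1, and Tubb3 not without any original tumor or adapted/B6 replicates 1 or 3 (adjusted p up to 0.0501 and 0.0995).

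Guidance molecules, which steer axons, vessels and migrating cells through paired ligands and receptors, were called in both directions. Of 33 tested 6 were higher, Sema3b, Sema4a, Sema4d, Ephb2, Efna5 and Plxnd1, and 6 lower, Slit3, Ntn1, Ntn4, Efna1, Epha2 and Plxna2 (median -0.13, 13 estimates above 0). Over the 5 scalings the rises numbered 5 to 6 and the falls 3 to 7. Without original replicate 2 the rises numbered 3, and without original replicates 1 and 3 the falls numbered 3 and 1. Among the ligands, Slit3, which signals through Robo receptors, was 14.2, 42.1 and 20.4 FPKM in the original, 1.98, 1.88 and 7.46 in the adapted/B6129SF1 and 2.92, 1.88 and 3.61 in the adapted/B6 tumors (log2 fold change -2.61, SE 0.42, adjusted p = 0.00693). Sema3b was 0.803, 0.398 and 0.375 FPKM in the original tumors against 2.32, 3.37 and 3.42 in adapted/B6129SF1 and 2.43, 4.26 and 2.55 in adapted/B6, a 5.82-fold rise (log2 fold change 1.40, SE 0.19, adjusted p = 0.00305). Sema4a, a semaphorin of immune and endothelial cells, rose from 2.98–4.58 to 8.94–15.3 FPKM (log2 fold change 1.30, SE 0.18, adjusted p = 0.00346). The netrin gene Ntn4 and the ephrin gene Efna1 fell (-0.87 and -0.68, adjusted p = 0.0153 and 0.0172), but Ntn4 not without original replicates 2 or 3 and Efna1 not without replicate 3 (adjusted p up to 0.073 and 0.0809). Among the receptors, Ephb2, which binds B-type ephrins, was 1.68, 0.665 and 0.698 FPKM in the original, 7, 6.18 and 6.53 in the adapted/B6129SF1 and 5.16, 7.89 and 6.06 in the adapted/B6 tumors. Its 6 adapted values were closely grouped above the original ones (log2 fold change 1.92, SE 0.18, adjusted p = 0.00115).

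In Wnt signalling 4 of 32 genes were higher, Wnt10b, Wnt6, Tcf7l1 and Lef1, and 3 lower, Ror1, Rnf43 and Dkk2 (median -0.02). Wnt6, Ror1 and Rnf43 reached the filter through 1 side alone, and of the 29 genes that did not, 3 were higher and 1 lower. With no filter 5 of 42 were higher and 3 lower. The rises numbered 1, 2 and 1 without original replicates 1, 2 and 3 and 8 without adapted/B6129SF1 replicate 3. Of the ligands, Wnt10b was 6.7, 12.7 and 6.46 FPKM in the original tumors against 44.2, 24.2 and 17.2 in adapted/B6129SF1 and 18.8, 41.3 and 27.9 in adapted/B6 (log2 fold change 1.61, SE 0.34, adjusted p = 0.0198) and Wnt6 rose from 0.114–0.239 to 0.931–2.63 FPKM (log2 fold change 0.99, SE 0.21, adjusted p = 0.0191). Wnt10b was not called without original replicates 1 or 3, and Wnt6 not without any of the 3 (adjusted p up to 0.0867 and 0.0685). Ror1, a receptor of non-canonical Wnt ligands, was 1.68, 1.69 and 1.82 FPKM in the original, 0.0709, 0.0942 and 0.833 in the adapted/B6129SF1 and 0.164, 0.079 and 0.126 in the adapted/B6 tumors, a 7.59-fold fall (log2 fold change -1.18, SE 0.19, adjusted p = 0.00736). Rnf43, which removes Frizzled receptors from the surface, fell from 1.11–1.33 to 0.242–0.396 FPKM (log2 fold change -0.72, SE 0.13, adjusted p = 0.0104). The secreted modulator Dkk2 was 222, 182 and 339 FPKM in the original tumors against 72.3, 88.8 and 37.9 in adapted/B6129SF1 and 107, 116 and 112 in adapted/B6 (log2 fold change -1.51, SE 0.27, adjusted p = 0.0104), with no call without original replicate 3 (adjusted p = 0.0501). Tcf7l1, a transcriptional repressor of Wnt targets, rose from 2–5.82 to 7.7–13.9 FPKM (log2 fold change 1.32, SE 0.22, adjusted p = 0.00805). Ctnnb1, which encodes beta-catenin, stayed between 169 and 204 FPKM in all 9 tumors (log2 fold change -0.06, SE 0.08, adjusted p = 0.658).

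Of 34 genes of TGF-beta, BMP and activin signalling 4 were higher, Ltbp2, Id1, Smad6 and Inha, and 0 lower (11.8% called, against 11.9% of all genes, median 0.08). Over the 5 scalings 2 to 5 were higher. The rises numbered 1 without original replicates 1 or 3 and 2 without adapted/B6 replicate 3, and there were 2 falls without adapted/B6129SF1 replicate 1 and 1 without original replicate 2 or adapted/B6129SF1 replicates 2 or 3. Inha, an inhibin subunit, kept its call in 2 of the 9 fits with a tumor left out (adjusted p up to 0.114). Ltbp2, a matrix protein related to the latent TGF-beta binding proteins, rose from 6.7–13.7 to 30.4–66.5 FPKM (log2 fold change 2.13, SE 0.24, adjusted p = 0.00195). Id1 and Smad6, targets of BMP signalling, rose by 0.87 and 0.95 (adjusted p = 0.031 and 0.0196). The call of Id1 was lost without any original tumor or adapted/B6 replicates 1 or 3, and that of Smad6 without original replicates 1 or 3 (adjusted p up to 0.121 and 0.0829). Among 36 growth factors and receptor tyrosine kinases 3 were higher, Vegfc, Egfr and Igfbp6, and 2 lower, Hbegf and Areg (13.9%, median 0.09). The rises numbered 1 without original replicate 3 and 5 without adapted/B6129SF1 replicate 3. The falls numbered 4 without original replicate 2, 0 without original replicates 1 or 3, and 1 without any adapted tumor except adapted/B6129SF1 replicate 1. Igfbp6 lost its call without original replicates 1 or 3 or adapted/B6 replicate 3 (adjusted p up to 0.0986). Vegfc, the lymphatic growth factor, rose from 1.24–1.8 to 3.37–7.37 FPKM (log2 fold change 1.32, SE 0.16, adjusted p = 0.00253), whereas Vegfa was not called (log2 fold change -0.12, SE 0.23, adjusted p = 0.761). Egfr, the receptor, rose from 4.13–6.18 to 7.71–25 FPKM (log2 fold change 1.39, SE 0.29, adjusted p = 0.0183), and its ligands Hbegf and Areg fell (-0.98 and -1.20, adjusted p = 0.0233 and 0.0481). Egfr was not called without original replicates 2 or 3 and Hbegf not without replicates 1 or 3 (adjusted p up to 0.0803 and 0.0931). Areg was called in 3 of 5 scalings and overlapped between the groups, and the call was lost without original replicates 1 or 3 and without 5 of the 6 adapted tumors, all but adapted/B6129SF1 replicate 1 (adjusted p up to 0.175).

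Of 22 genes of Braf-MAPK output and feedback 0 were higher and 2 lower (9.09% called, against 11.9% of all genes, median -0.26). The call of one of them, the AP-1 gene Fosl1, was lost with each tumor left out except original replicate 2 (adjusted p up to 0.164). Braf itself was 8.57, 9.86 and 9.04 FPKM in the original tumors against 8.23, 6.72 and 5.55 in adapted/B6129SF1 and 7.2, 7.69 and 6.76 in adapted/B6 and not called (adjusted p = 0.0879). Of 18 p53 targets 2 were higher, the pro-apoptotic Bax (log2 fold change 0.38, SE 0.08, adjusted p = 0.0181) and Phlda3 (log2 fold change 1.20, SE 0.25, adjusted p = 0.0197), and 2 lower, the DNA polymerase gene Polk (log2 fold change -0.47, SE 0.08, adjusted p = 0.00857) and Pmaip1, which encodes the pro-apoptotic Noxa (log2 fold change -1.60, SE 0.32, adjusted p = 0.0153). Bax and Phlda3 were not called without original replicates 1 or 3 and Polk and Pmaip1 not without replicate 3 (adjusted p up to 0.0784, 0.0842, 0.0501 and 0.057).

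Most of the called genes of prostaglandin, steroid and retinoid metabolism fell. Ptgs2, the inducible cyclooxygenase, was 32.1, 10.9 and 43.3 FPKM in the original, 6.89, 3.17 and 2.7 in the adapted/B6129SF1 and 3.39, 5.88 and 4.43 in the adapted/B6 tumors (log2 fold change -2.32, SE 0.41, adjusted p = 0.0104). Without original replicate 1 it narrowly lost its call (adjusted p = 0.0506). Ptgfr, the receptor for prostaglandin F, was 12, 15.2 and 16.5 FPKM in the original tumors against 1.49, 3.29 and 2.51 in adapted/B6129SF1 and 3.5, 3.33 and 2.35 in adapted/B6, a 5.3-fold fall (log2 fold change -2.07, SE 0.19, adjusted p = 0.00109). Ptgis, which makes prostacyclin, went the other way and was 0.138, 0.183 and 0.314 FPKM in the original, 3.65, 1.67 and 7.51 in the adapted/B6129SF1 and 3.87, 6.82 and 5.7 in the adapted/B6 tumors, a 23-fold rise (log2 fold change 2.18, SE 0.32, adjusted p = 0.00491). Of 17 genes of this list 1 was higher and 2 lower (median -0.12). Of 22 aldo-keto reductases and retinoid or steroid enzymes 1 was higher and 6 lower (median -0.04), the latter Akr1c18, Akr1b8, Rdh10, Akr1c14, Akr1b3 and Cyp26b1, of which 3 were left without original replicate 3. Without the 2 that were tested through the original tumors alone, 1 was higher and 4 lower of 20, and with no filter 1 and 5 of 29. Akr1c14 kept its call in 1 of the 9 fits with a tumor left out (adjusted p up to 0.0858). The rise was lost without original replicates 1 or 3 or adapted/B6 replicate 3. Besides Akr1c18, Akr1b8, which reduces retinal and lipid aldehydes, fell from 164–193 to 67–109 FPKM (log2 fold change -0.96, SE 0.13, adjusted p = 0.00372). Rdh10, which takes retinol to retinal, fell from 24.6–36.9 to 11.1–18.5 FPKM (log2 fold change -0.99, SE 0.17, adjusted p = 0.00862). Akr1c genes resemble each other, and reads may have been divided among them.

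Of the 32 genes tested in the list of glycosaminoglycan synthesis and sulfation, Chst15 was the 1 called, and 0 were lower (3.12% called, against 11.9% of all genes, median -0.02). Without adapted/B6129SF1 replicate 3, or without both muscle-rich tumors, the count was 2, with upper-quartile scaling 3 were higher, and with quantile normalization 1 was lower. The list did not hold every such enzyme. Chst13, a chondroitin sulfotransferase outside it that was named after its values were seen, rose from 0.355–0.49 to 1.27–3.68 FPKM (log2 fold change 0.97, SE 0.22, adjusted p = 0.0258), a call lost without any original tumor and with quantile normalization (adjusted p up to 0.0943). Papss1, which makes the sulfate donor and had the highest level of the list, was between 55.2 and 82.7 FPKM (log2 fold change -0.09, SE 0.15, adjusted p = 0.73). Of 15 proteoglycan core proteins 3 were higher, Sdc3, Gpc6 and Agrn, and 2 lower, Gpc1 and Cspg4 (median 0.05). The syndecan gene Sdc3 rose from 27.9–31.5 to 46.1–71.8 FPKM (log2 fold change 0.86, SE 0.14, adjusted p = 0.00754). The glypican gene Gpc6 rose from 0.297–0.578 to 1.23–1.88 FPKM (log2 fold change 0.81, SE 0.12, adjusted p = 0.00545) and its relative Gpc1 fell from 52.5–67.6 to 26.8–42.8 FPKM (log2 fold change -0.66, SE 0.14, adjusted p = 0.022), the latter not called without original replicates 1 or 3 (adjusted p up to 0.0953).

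Among 33 metalloproteinases and inhibitors 2 were higher, Adamts2 and Anpep, and 4 lower, Mmp2, Mmp10, Mme and Adamts5 (median -0.21). The falls numbered 2 without original replicate 1, adapted/B6129SF1 replicate 2 or any adapted/B6 tumor, and without original replicate 1 Anpep was lost (adjusted p = 0.0501). Adamts5 kept its call in 1 of the 9 fits with a tumor left out (adjusted p up to 0.099). Mmp2, the gelatinase of basement membranes, was 78.4, 94.8 and 74.5 FPKM in the original, 16, 16.3 and 42.7 in the adapted/B6129SF1 and 22.9, 10.6 and 14.9 in the adapted/B6 tumors (log2 fold change -2.08, SE 0.33, adjusted p = 0.00641), with the highest adapted value in the muscle-rich adapted/B6129SF1 replicate 3. Adamts2, which trims procollagen, rose from 0.842–2.3 to 6.46–10.3 FPKM (log2 fold change 1.75, SE 0.21, adjusted p = 0.00238). Of 23 integrins and laminins 2 were higher, Nid1 and Itga1, and 1 lower (13% called, against 11.9% of all genes, median 0.04). The rises numbered 0 without original replicates 2 or 3 or adapted/B6 replicate 3, and 4 without adapted/B6129SF1 replicate 3. There was 1 rise without original replicate 1, adapted/B6129SF1 replicates 1 or 2 or adapted/B6 replicate 1. Itga1 kept its call in 2 of the 9 fits with a tumor left out (limma adjusted p up to 0.131). Of 18 collagens 2 were higher and 0 lower (11.1% called, against 11.9% of all genes, median 0.22), namely Col5a1 (log2 fold change 0.64, SE 0.14, adjusted p = 0.022) and Col8a1 (log2 fold change 0.61, SE 0.13, adjusted p = 0.0205). Both were lost without original replicates 2 or 3 or adapted/B6 replicate 3 (adjusted p up to 0.0867 and 0.078).

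Small consistent shifts were found in genes of many roles, and several had a smaller p than larger changes such as that of Mme, with little spread within each group. The 8 higher and 8 lower with the smallest p and a mean of at least 10 FPKM were called in each scaling and with each tumor left out. Gsdmd, the pore-forming executioner of pyroptosis, was 30.1, 26.8 and 28.6 FPKM in the original, 51, 52.6 and 53.2 in the adapted/B6129SF1 and 43.1, 48.5 and 52.6 in the adapted/B6 tumors (log2 fold change 0.79, SE 0.08, adjusted p = 0.00123). Loxl3, a lysyl oxidase that crosslinks matrix, rose from 33.4–42 to 59.8–80.8 FPKM (log2 fold change 0.90, SE 0.11, adjusted p = 0.00255). Lgals9, a galectin that binds immune receptors, was 24.7, 25.2 and 24.5 FPKM in the original, 43.2, 36.7 and 40.8 in the adapted/B6129SF1 and 34.5, 38.2 and 40.9 in the adapted/B6 tumors, with the original tumors closely grouped (log2 fold change 0.63, SE 0.08, adjusted p = 0.0029). Samhd1, an interferon-inducible hydrolase of nucleotides, rose 1.83-fold (log2 fold change 0.85, SE 0.11, adjusted p = 0.0029). The G protein subunit Gng2, the adaptor Plekha2 and the cytochrome Cyp4v3 rose by 0.69, 0.86 and 0.58 (adjusted p = 0.00276, 0.00255 and 0.00286).

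Among the small falls, Rab23, a GTPase that restrains Hedgehog signalling, was 27.9, 29.7 and 31.3 FPKM in the original, 13.4, 13.3 and 13.7 in the adapted/B6129SF1 and 15.5, 18.5 and 19.2 in the adapted/B6 tumors (log2 fold change -0.90, SE 0.09, adjusted p = 0.00115). Rnf2, the ubiquitin ligase of Polycomb repressive complex 1, fell from 29.9–31.9 to 18.8–22.3 FPKM (log2 fold change -0.61, SE 0.08, adjusted p = 0.00258). Zdhhc20, a palmitoyltransferase, fell from 20.5–22.9 to 12.3–14.6 FPKM (log2 fold change -0.65, SE 0.08, adjusted p = 0.00239), and Galnt7, which adds O-linked sugars, from 22.5–31.5 to 12–15.7 FPKM (log2 fold change -0.98, SE 0.12, adjusted p = 0.00276).

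**Figure D4:**
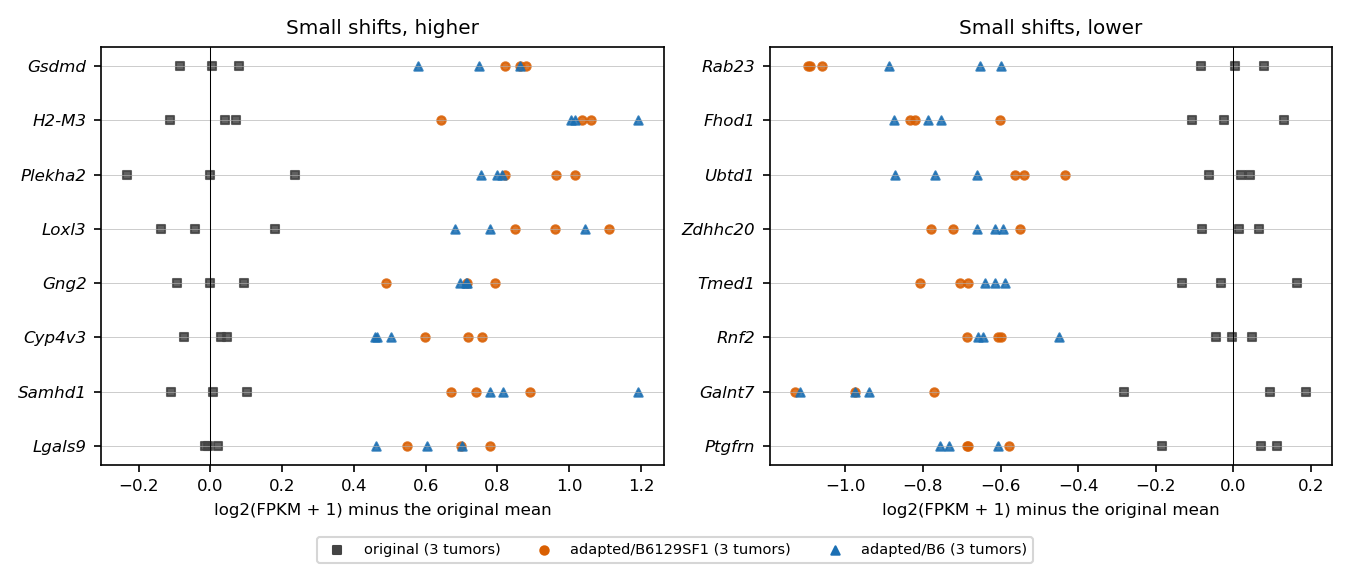
log2(FPKM + 1) of each tumor minus the mean of the 3 original tumors for the 8 small shifts with the smallest p that were higher (left) and lower (right), with original tumors as grey squares, adapted/B6129SF1 as orange circles and adapted/B6 as blue triangles. The genes were chosen for having no overlap between adapted and original tumors, and have mean differences between 0.58 and 0.99 in size.

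Housekeeping and metabolic lists differed in how many members were called. Of the 64 lists with a gene tested, 11 had no member called, and these included 56 ribosomal protein genes, 51 genes of the respiratory chain, 39 of DNA replication and mitosis, 29 of lysosome and autophagy and 36 splicing factors. At an unadjusted p under 0.05, limma gave 1, 2, 0, 2 and 2 genes of these lists. Their medians were -0.14, 0.06, -0.20, -0.01 and -0.06, against -0.03 over all genes, and 11, 31, 4, 13 and 15 estimates were above 0. The proliferation marker Mki67 was 76.2, 41.5 and 41.3 FPKM in the original tumors against 29.6, 74.5 and 57.1 in adapted/B6129SF1 and 63.2, 51.1 and 51.4 in adapted/B6 (log2 fold change 0.05, SE 0.29, adjusted p = 0.931). Of 25 cytosolic chaperones 4 were lower, Dnajb1, Hspa1b, Hspa1a and Cct2, and 0 higher (16%, median -0.11). These falls numbered 2 and 1 without original replicates 1 and 3, and 2 without adapted/B6129SF1 replicate 2 or adapted/B6 replicates 1 or 3. Dnajb1, a co-chaperone of Hsp70, fell from 27.3–29.9 to 19.3–21.3 FPKM (log2 fold change -0.48, SE 0.07, adjusted p = 0.00388). The inducible Hsp70 gene Hspa1b, whose reads can be shared with Hspa1a, fell as well (log2 fold change -1.44, SE 0.27, adjusted p = 0.0126), though not without original replicate 3 (adjusted p = 0.053), while the constitutive Hspa8 was not called (log2 fold change -0.04, SE 0.10, adjusted p = 0.804). Of 22 glycolysis genes 3 were higher, Pfkp, Eno2 and Pfkfb4, and 1, Pgam1, lower (18.2%, median 0.24). One rise was left without original replicates 1 or 3 or adapted/B6 replicate 3, and the fall was lost with each tumor left out except adapted/B6129SF1 replicate 1. Pfkp, a phosphofructokinase, rose from 10.1–11.8 to 15.6–25.6 FPKM (log2 fold change 0.89, SE 0.14, adjusted p = 0.00623). Of 25 genes of serine, one-carbon and amino acid synthesis 4 were higher, Aldh1l2, Ass1, Bcat1 and Ido1, and 2 lower (24%, median 0.00). The rises numbered 0, 1 and 0 without original replicates 1, 2 and 3, and 2 without adapted/B6129SF1 replicate 2 or adapted/B6 replicates 1 or 3. Ido1 reached the filter through the adapted tumors alone. Of the 23 genes that did not reach it through 1 side, 3 were higher and 2 lower. Bcat1 kept its call in 1 and Ass1 in 3 of the 9 fits with a tumor left out (adjusted p up to 0.0969 and 0.0871). Of 27 NRF2 and glutathione genes 1 was higher and 1 lower (7.41% called, against 11.9% of all genes, median 0.07), the latter being Gsr, glutathione reductase (log2 fold change -0.57, SE 0.10, adjusted p = 0.00985). The former, Gstm2 (log2 fold change 1.44, SE 0.37, adjusted p = 0.0392), was not called without original replicates 1 or 3 or without 5 of the 6 adapted tumors, all but adapted/B6129SF1 replicate 1 (adjusted p up to 0.14).

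**Figure D5:**
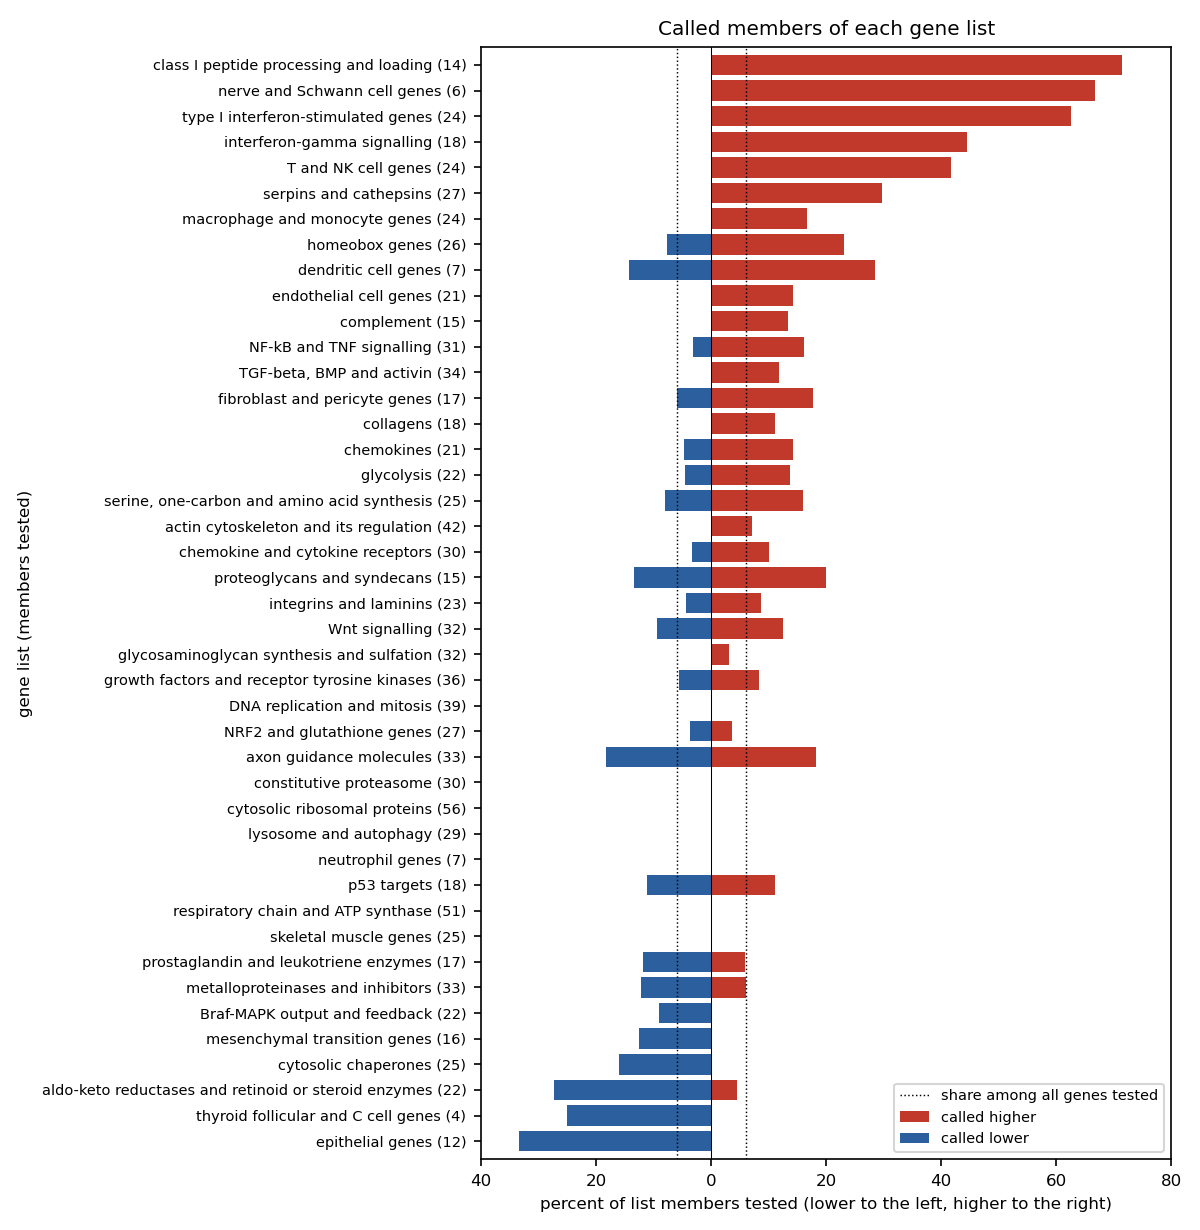
Percent of the tested members of each of 43 gene lists that were called higher (red, to the right) or lower (blue, to the left) in adapted tumors, with the number tested in brackets and dotted lines at the share among all genes tested (6.06% higher and 5.84% lower). Class I processing (71.4% called), nerve genes (3 of 6 of them tested through the adapted tumors alone) and both interferon lists extend farthest to the right, epithelial genes and aldo-keto or retinoid enzymes farthest to the left among lists of over 4 genes, and several housekeeping lists have no bar.

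Each adapted group was also compared on its own with the original tumors, which both of these comparisons share. In them adapted/B6129SF1 differed from the original tumors at 850 genes (8.28%) and adapted/B6 at 693 (6.75%). Between the adapted groups 3 genes were called (0.0292%) and 643 had an unadjusted p under 0.05. None of the 3 was among the 1221, of which 147 had an unadjusted p under 0.05 for that difference. Among the named genes, some immune genes had sizeable differences of this kind. Gzmb changed by 0.62 in adapted/B6129SF1 and 2.43 in adapted/B6, and the difference of 1.81 did not pass the threshold (limma adjusted p = 0.322). Cd274 changed by 0.67 and 1.63 (difference 0.96, adjusted p = 0.36), and Il1rl1 by -3.63 and -1.90 (difference 1.73, adjusted p = 0.624).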

How the data were processed

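RNA-seq libraries were made from total RNA of 9 whole tumors (3 per group). Cells, hosts and gene names are murine, although the labels name human as the organism. The deposited FPKM values were made by the authors, who checked reads with FastQC, aligned them to the mouse genome mm10 with HISAT2 and ran Cuffnorm for all tumors. The annotation and the scaling used by Cuffnorm are not given in the sources used here. Every column of the table was a tumor, so that no column was left out. Because FPKM are not counts, no count test was applied.

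Of 17369 genes, the 10263 that reached 1 FPKM in 3 tumors or more were analysed as log2(FPKM + 1) with limma 3.58.1 (R 4.3.3) in a fit of 3 groups with a mean-variance trend. The contrast was the mean of both adapted groups minus the original group, with Benjamini-Hochberg adjustment over all genes tested. DEG, non-overlap and small shift were defined as in the results. Tumors within a group are separate animals, but all adapted tumors descend from 1 passage series, and p-values cover the spread between tumors only. In data simulated on the 10263 genes, 19, 42, 49 and 50 of 50 genes each changed by 0.5, 1, 2 and 3 on the log2 scale were recovered with 6 false calls in all. The changed genes were taken from the better expressed ones, and each gene varied independently of the others. The tumors here also held weakly expressed genes and variation shared between genes, so these rates cannot be carried over to them. No tumor pair shared values at more than 0.0487% of genes. Relative depth was roughly estimated from the spacing of low FPKM values, and the absolute depth is unknown.

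Genes were named by rule. It took the 12 largest rises and falls without overlap at a mean of at least 5 FPKM on the higher side, and the 8 small shifts per direction with the smallest p at a mean of at least 10 FPKM. It also took the gene of smallest p, genes the study names, and, per described list, up to 3 called members of smallest p per direction and the member of highest level. Hoxa3, Hoxa4, Hoxa5, Hoxb9, Chst13, Krt18, Pecam1 and Tubb3 were added after their values were seen, as were the genes of the closing observations, list members named beside a count without values, and those given to check the labels. The comparison, the lists and their members were chosen with earlier results of these data known. Lists are described by counts and medians, with no test, and a few of their members are not reported here. Counts without genes that reached the filter through 1 side were added after the data were seen. Alternatives covered the pseudocount, filter, scaling, model, threshold and single tumors. Coordinates and sequences are not given, since no mouse annotation was used here.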

Additional observations from a re-analysis of the deposited data

Results flagged for a closer look

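Each of these values was set apart because 1 of the 6 adapted tumors lay far from the rest on the log2 scale, with a gap to its nearest neighbour that exceeded Dixon's 95% limit for 6 samples. Chance alone gives about 1 such case in 20, and 22 of the 236 sets of 6 values met it. The source of these values was not tested.

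Adapted/B6129SF1 replicate 1 was low for T and NK cell genes in sum and for some single genes, while its summed macrophage and monocyte level was 4993 FPKM. Its summed level of T and NK cell genes was 44.1 FPKM, and in it Cxcl9 was 38.6, H2-M3 13.8, Gng2 20.9, Cd3g 2.03 and the dendritic cell factor Batf3 0.391 FPKM, each the lowest of the adapted tumors. Wnt6 was highest there at 2.63 FPKM. Adapted/B6129SF1 replicate 3, the tumor with the most muscle transcripts, had the highest sum of the fibroblast and pericyte list (3873 FPKM, of which Des made up 1826 FPKM). It also had the highest Ly6c2 (26.6 FPKM) and Ror1 (0.833 FPKM). It had the lowest Cldn9 (5.15 FPKM), Akr1c18 (0.501 FPKM), S100b (1.25 FPKM), Akr1b8 (67 FPKM) and Hhex (14.7 FPKM). Adapted/B6129SF1 replicate 2 had the lowest level of the chemokine gene Ccl6 (64.7 FPKM).

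Adapted/B6 replicate 2 had the lowest macrophage genes Csf1r (43.8 FPKM) and C1qa (324 FPKM), and stood apart for Rnf2 (22.3 FPKM, the highest) and Ntn4 (7.43 FPKM, the highest). Adapted/B6 replicate 1 had the lowest Mme (0.509 FPKM) and the lowest Hspa8 (969 FPKM).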

How the results depend on the processing

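Only 3 original tumors anchor the comparison, depth is known only relatively, and FPKM near 1 give little precision, which limits calls among weakly expressed genes. With 1 tumor left out in turn, the genes called higher ranged from 275 to 638 and those called lower from 188 to 526, DEGs higher from 183 to 280 and lower from 54 to 98, small shifts higher from 90 to 363 and lower from 134 to 423, and genes without overlap from 932 to 1327 above and from 1136 to 1823 below. The lowest counts of called genes, DEGs and small shifts came without original replicate 3. Of the genes called, 238 higher and 143 lower stayed called with each tumor left out.

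Upper-quartile scaling gave 367 genes called lower and 280 small falls, and rescaling without the muscle list gave 324 and 238. Leaving out the 2 muscle-rich tumors, an alternative chosen after seeing the data, gave 326 genes called lower and 235 small falls. A muscle covariate gave 298 small falls, and a minimum of 5 FPKM gave 211 small rises. Array weights gave 1206 higher and 1371 lower, with 490 and 769 small shifts. An adjusted p under 0.01 left 223 genes higher and 123 lower, 165 and 46 DEGs and 58 and 77 small shifts, and one under 0.1 gave 984 and 1094 genes with 493 and 789 small shifts. Tested by limma's treat, 10 DEGs were higher and 2 lower against a log2 fold change of 1, and 90 and 33 against 0.5. The cause of these differences was not tested.

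Replicate numbers are shared by the groups but mark different animals. Deviations of same-numbered tumors correlated between -0.39 and 0.61, and 3 of the 9 tumors correlated best with their own number, so the numbers were not taken to pair the tumors. With the number as a replicate block, 453 genes were called higher and 340 lower, with 198 and 247 small shifts.

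For the 222 genes counted as named, 16 alternatives and 9 left-out fits gave 5514 estimates. Of these, 458 lost the call, 21 gained one and 0 reversed a called direction. Of the 177 called, 98 were called in each of these fits.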

Other observations

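Developmental transcription factors outside the lists were also among the genes called. The genes of this and the next paragraph were chosen after their values were seen. Isl1, a LIM homeobox factor of motor neurons and heart progenitors, was 4.14, 4.47 and 4.32 FPKM in the original, 26.6, 16.9 and 11.3 in the adapted/B6129SF1 and 17.3, 20.2 and 14.4 in the adapted/B6 tumors (log2 fold change 1.78, SE 0.22, adjusted p = 0.00266, limma). Gata4 and Gata6, zinc finger factors of endoderm and heart, were 7.94 ± 2.25 against 2.42 ± 0.342 FPKM and 14.6 ± 4.85 against 5.51 ± 0.272 FPKM (mean ± SD, n = 6 and 3 tumors), so that Gata4 rose by 1.35 (adjusted p = 0.00652) and Gata6 by 1.21 (adjusted p = 0.0165) as log2 fold changes. Tbx2, a T-box repressor, was 0.527, 1.4 and 0.819 FPKM in the original tumors against 17.8, 5.26 and 2.76 in adapted/B6129SF1 and 10.5, 8.68 and 6.55 in adapted/B6 (log2 fold change 2.17, SE 0.44, adjusted p = 0.0162), and Shox2, a limb and sinus node factor, rose from 4.05–6.55 to 9.81–22.8 FPKM (log2 fold change 1.34, SE 0.25, adjusted p = 0.013). In the other direction, Foxf2, a forkhead factor of mesenchyme, was 3.61, 2.44 and 3.89 FPKM in the original, 0.256, 0.145 and 0.578 in the adapted/B6129SF1 and 0.357, 0.224 and 0.228 in the adapted/B6 tumors (log2 fold change -1.72, SE 0.17, adjusted p = 0.00117). The Iroquois genes Irx3 and Irx5, which are neighbours in the genome, fell by 1.46 and 1.18 (adjusted p = 0.0034 and 0.00117). Tbx2 and Gata6 were not called without original replicates 1 or 3 (adjusted p up to 0.0708 and 0.0675), and the other 6 were called in each of the 5 scalings and with each tumor left out.

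Genes known from neurons were called in both directions. Crmp1, which relays semaphorin signals, was 0.703, 0.247 and 0.463 FPKM in the original, 5.38, 6.12 and 6.14 in the adapted/B6129SF1 and 5.22, 7.93 and 6.63 in the adapted/B6 tumors (log2 fold change 2.30, SE 0.15, adjusted p = 0.000463). Dclk1, a microtubule-associated kinase, rose from 2.95–4.77 to 15.2–29.2 FPKM (log2 fold change 2.10, SE 0.18, adjusted p = 0.000732), whereas Gap43, a growth cone protein, was 5.46, 2.9 and 5.45 FPKM in the original tumors against 0.0715, 0.739 and 0.621 in adapted/B6129SF1 and 0.467, 0.199 and 0 in adapted/B6 (log2 fold change -2.05, SE 0.24, adjusted p = 0.00206). Nova1, a neuronal splicing factor, fell from 3.41–4.32 to 0.685–1.49 FPKM (log2 fold change -1.17, SE 0.13, adjusted p = 0.00174), and Dner, a Notch-related neuronal receptor, from 2.2–3.04 to 0.235–0.543 FPKM (log2 fold change -1.40, SE 0.14, adjusted p = 0.00117). Olfml3, a secreted matrix protein, rose from 31.4–39.7 to 111–149.8 FPKM (log2 fold change 1.83, SE 0.12, adjusted p = 0.000463). A few genes were close to absent on 1 side, with under 0.1 FPKM in every tumor there and at least 0.5 FPKM in every tumor of the other. Near 0 in the original tumors were Unc5a, a netrin receptor, Pax6, an eye and forebrain factor, Ido1, the interferon-inducible tryptophan dioxygenase, Diras2, Scrn1 and Fam81a. Near 0 in the adapted tumors were Btn1a1, a butyrophilin, and Cpa6, Vsnl1, Tfap2a and Cbln1. These genes were picked for this pattern and are given here with no test, although Ido1 is counted as called in its list above. Tfap2a, a factor of ectoderm and neural crest, was 0.606, 0.687 and 1.02 FPKM in the original tumors and at most 0.0864 FPKM in the adapted ones.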
